A study of Homo sapiens with 6 samples.

Results

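The kallikrein-related peptidases KLK5 to KLK14 were followed on Clariom D arrays of 2 human breast epithelial lines, the fluvastatin-sensitive MCF10.AT1 and the fluvastatin-resistant MCF10.AT1-R. The members were taken by gene symbol, 10 genes of the 81496 gene symbols on the array, and each was read by 1 probe set, a group of short probes summarised into a single log2 value. MCF10.AT1 is a preneoplastic line of the MCF10A series that carries activated HRAS, and it was profiled untreated. MCF10.AT1-R was selected from it in fluvastatin, an inhibitor of HMG-CoA reductase, at doses raised from 1 µM and 5 µM to 20 µM. For its MCF10A series lines the study lists a medium of DMEM and F12 with horse serum, calcium chloride, EGF, hydrocortisone and insulin. Its account of how MCF10.AT1-R was selected names no medium. Whether fluvastatin was present when the RNA of MCF10.AT1-R was taken, and whether the line is 1 clone, is not given in the sources used here. GEO's treatment text, which describes the fluvastatin steps, stands on the entries of both lines, whereas its design text calls MCF10.AT1 untreated. There were 3 arrays per line, which the study describes as biological replicates. The arrays A01, A02 and A03 were read as MCF10.AT1 and B02, B03 and B04 as MCF10.AT1-R, a reading that rests on the letter and the study's account of the array it removed, since the array names do not give the line.

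Tissue kallikreins are secreted serine proteases whose genes lie side by side in 1 cluster on chromosome 19. They leave the cell as inactive proenzymes and become active when a short N-terminal propeptide is cut off, often by another kallikrein. In the outer layers of the skin KLK5 and KLK7 cut the proteins that hold cornified cells together, and LEKTI, the product of SPINK5, holds them in check. KLK7 cuts with a chymotrypsin-like preference, whereas KLK5, KLK6, KLK8 and KLK14 cut after arginine or lysine as trypsin does. In the breast KLK10 was first described as NES1, a gene of normal epithelial cells that is silent in many breast cancer lines.

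The 5 arrays without A03 correlated with each other at Pearson's r of 0.967 to 0.977 over all 135750 transcript probe sets, and A03 correlated with them at 0.779 to 0.795. A03, which the study removed, is therefore given apart, and the lines were compared over A01 and A02 against B02, B03 and B04. Of the transcript probe sets, 51457 passed a filter on low and invariant values, and limma called 620 of them (1.20%) at a false discovery rate (FDR) of 5%. The median log2 change of the tested probe sets was -0.01. On each array a value was counted as within the negative controls when it did not exceed the 95th percentile of 612 probe sets built to match no transcript, a limit between 2.88 and 3.14 on the 5 arrays. KRT5, KRT14, TP63, CDH1 and the rest of a list of 10 markers of basal breast epithelium lay above the negative controls on each of the 5 arrays. So did 5 of 7 luminal, 3 of 8 cornifying keratinocyte, 3 of 6 fibroblast, 2 of 3 endothelial and 2 of 4 leukocyte markers. Lying above the controls therefore does not by itself tell the cell type.

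The members were chosen after KLK5 and KLK7 had been seen to stand among the largest changes between these same arrays. Their differences between the lines are therefore given as a description, and where a member is said to be past FDR 5% this only states where the fit over all probe sets placed it and is no independent evidence. All 10 members passed the filter, which itself favours probe sets that differ between the lines. In limma 4 of the 10 were past FDR 5%, KLK5, KLK6, KLK7 and KLK10, all higher in MCF10.AT1-R, where 0.758% of all tested probe sets were past it in that direction and 0.447% in the other. In 7 of the 10 the lowest B array was higher than the highest A array, as in 12.9% of the tested probe sets. Nothing is read from these counts. The log2 changes of the 10 ranged from -0.23 to 4.64 with a median of 0.83. Each carries a standard error of 0.31, because limma took 1 common SD of 0.34 for all probe sets after the filter and not the spread of the gene itself. The adjusted p-values of this fit, given below, take that SD as known and can be far smaller than without the filter.

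The sequences before the start sites of the 4 genes that were higher are shown so that they can be read beside each other, together with KLK14, which was not higher. They are the 250 bases before an annotated start, from RefSeq on GRCh38.p14, and 9 of the 10 members had such an entry, KLK8 being the other. All windows lie on the minus strand and are written 5′ to 3′ along the gene. They cover chr19:50953039-50953288 for KLK5, chr19:50969592-50969841 for KLK6, chr19:50984065-50984314 for KLK7, chr19:51019862-51020111 for KLK10 and chr19:51084211-51084460 for KLK14, and for genes with several starts the outermost is shown. Capitals mark GGGCGG, the GC box of SP1, and GGAATG, a TEAD motif, or their complements CCGCCC and CATTCC.
KLK5: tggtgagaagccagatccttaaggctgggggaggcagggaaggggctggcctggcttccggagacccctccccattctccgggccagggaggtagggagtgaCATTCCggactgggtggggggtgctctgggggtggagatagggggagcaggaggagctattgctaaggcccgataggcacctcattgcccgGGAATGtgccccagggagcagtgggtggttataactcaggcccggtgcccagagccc
KLK6: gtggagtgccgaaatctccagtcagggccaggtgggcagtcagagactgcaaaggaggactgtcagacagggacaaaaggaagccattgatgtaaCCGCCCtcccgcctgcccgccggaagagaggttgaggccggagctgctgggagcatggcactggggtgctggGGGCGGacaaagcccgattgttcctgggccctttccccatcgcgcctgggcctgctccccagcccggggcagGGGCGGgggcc
KLK7: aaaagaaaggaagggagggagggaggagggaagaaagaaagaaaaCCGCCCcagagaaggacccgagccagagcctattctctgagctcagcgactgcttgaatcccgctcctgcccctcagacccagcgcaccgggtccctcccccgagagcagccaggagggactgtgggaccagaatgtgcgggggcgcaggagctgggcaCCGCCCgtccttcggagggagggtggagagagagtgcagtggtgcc
KLK10: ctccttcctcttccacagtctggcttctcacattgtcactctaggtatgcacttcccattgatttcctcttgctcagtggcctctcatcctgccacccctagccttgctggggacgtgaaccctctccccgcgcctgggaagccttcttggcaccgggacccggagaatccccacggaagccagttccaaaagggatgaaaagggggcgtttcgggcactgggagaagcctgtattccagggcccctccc
KLK14: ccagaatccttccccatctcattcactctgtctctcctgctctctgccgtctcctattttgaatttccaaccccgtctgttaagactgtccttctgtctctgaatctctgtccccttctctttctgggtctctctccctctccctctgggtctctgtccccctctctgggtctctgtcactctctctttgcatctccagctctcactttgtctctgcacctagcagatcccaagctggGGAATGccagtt
GGGCGG was found on either strand in 10 of the 16 windows of the members, against 42.6% of all 35116 RefSeq windows of this length. In KLK6 it stood 155, 83 and 11 bases before the start, and in the KLK7 window shown it stood 205 and 46 bases before it. No GGGCGG was found in the windows of KLK5, KLK10 and KLK12. Windows of KLK9, KLK11, KLK13 and KLK14, which were not among the genes shown as higher, did hold GGGCGG. For KLK14 it stood only in the overlapping windows that are not shown, and the KLK14 window shown held none. GGAATG was found in 4 of the 16 windows, those of KLK5 and KLK14, against 11.9% of all windows. KLK5 held it 148 and 57 bases before the start, and the KLK14 window shown held it 12 bases before. TGANTCA (AP-1, in 6.57% of all windows), TATAAA (the TATA box, searched on the strand of the gene, in 6.8%), AACCGGTT (Grainyhead-like, in 0.117%) and TCACCCCAC (a sterol regulatory element, in 0.362%) were not found in the 16 windows. Motifs other than TATAAA were searched on both strands. Several windows of KLK7, KLK13 and KLK14 overlap, so that 1 site can be counted in more than 1 of them.

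KLK7, the chymotrypsin-like protease of the cornified layer, was 4.45 on A01 and 4.60 on A02. It was 9.15 on B02, 9.10 on B03 and 9.23 on B04. The groups did not overlap, with a gap of 4.50 on the log2 scale between the nearest arrays of the lines. The parental mean of 4.52 ± 0.11 (SD, n = 2) stood against 9.16 ± 0.07 (SD, n = 3) in the resistant line, a log2 change of 4.64 or 24.9-fold. KLK5, the trypsin-like protease that can activate itself and pro-KLK7, was 6.03 on A01 and 5.34 on A02. It was 9.76 on B02, 9.86 on B03 and 9.75 on B04. Its MCF10.AT1 arrays stood 0.69 apart while its MCF10.AT1-R arrays stood within 0.10, and the gap between the lines was 3.73. The mean was 5.68 ± 0.49 (SD, n = 2) and 9.79 ± 0.06 (SD, n = 3), a log2 change of 4.11 or 17.2-fold. Only 2 of the 51457 tested probe sets had a larger rise than KLK7 and 4 had a larger rise than KLK5.

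KLK10, the NES1 gene, was 3.52 on A01 and 3.67 on A02, close to the negative controls but above them. It was 6.72 on B02, 6.54 on B03 and 6.36 on B04. The arrays of the lines were separated by 2.69, and the means of 3.60 ± 0.10 (SD, n = 2) and 6.54 ± 0.18 (SD, n = 3) differed by 2.94 on the log2 scale, or 7.69-fold. KLK6, a trypsin-like protease best known from the nervous system, was 5.92 on A01 and 5.78 on A02. It was 8.29 on B02, 8.22 on B03 and 8.39 on B04. The lines were again clear of each other, by 2.30, and the means of 5.85 ± 0.10 (SD, n = 2) and 8.30 ± 0.08 (SD, n = 3) differed by 2.45, or 5.45-fold. By size of rise KLK10 stood at place 27 and KLK6 at place 48 of the 51457.

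KLK8, or neuropsin, which also acts in the skin, was 5.44 on A01 and 5.49 on A02, and 6.54, 6.44 and 6.12 on B02, B03 and B04. The lines did not overlap, but its log2 change of 0.90 was not past FDR 5%. It was past FDR 5% with limma's trend option, which lets the variance follow the expression level, with a stricter filter on low values and with array weights. The means were 5.46 ± 0.04 (SD, n = 2) and 6.37 ± 0.22 (SD, n = 3), and the arrays of a line stood at most 0.42 apart.

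KLK11, also called hippostasin, was 2.24 on A01 and 2.12 on A02, and 2.68, 2.97 and 3.16 on B02, B03 and B04. Both MCF10.AT1 arrays and 1 MCF10.AT1-R array lay within the negative controls, and with values raised to the controls' limit of 2.99 the log2 change of 0.76 came to 0.06. Array weights put KLK11, like KLK8, past FDR 5%. KLK13 was 1.95 on A01 and 1.88 on A02, and 2.39, 2.18 and 2.38 on B02, B03 and B04. Its lines did not overlap, yet all 5 arrays lay within the negative controls and no change is left above that limit. KLK9, which lies between KLK8 and KLK10, was 2.80 on A01, 2.85 on A02, 3.36 on B02, 2.77 on B03 and 2.79 on B04. The lines overlapped, 4 of its 5 arrays lay within the negative controls, and its log2 change was 0.15. KLK12 was 2.79 on A01, 2.46 on A02, 2.80 on B02, 2.57 on B03 and 3.10 on B04. It overlapped too, with a log2 change of 0.19 and 4 of 5 arrays within the negative controls.

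KLK14, a strong trypsin-like protease of the skin, was 4.12 on A01 and 3.79 on A02, and 3.81, 3.45 and 3.91 on B02, B03 and B04. It lay above the negative controls on all 5 arrays, the lines overlapped, and the log2 change was -0.23, the one member with a change below 0. On A03 the members read 2.10 to 4.36. For KLK5, KLK6, KLK7, KLK8 and KLK10 the A03 value stayed below all MCF10.AT1-R arrays, at 3.15, 3.51, 4.09, 3.54 and 4.36. KLK10 on A03 was higher than on A01 and A02, whereas KLK5, KLK6, KLK7 and KLK8 were lower there than on both. With A03 counted as MCF10.AT1, 1 member, KLK7, was past FDR 5%, where 0.0447% of the tested probe sets were called.

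**Figure D1:**
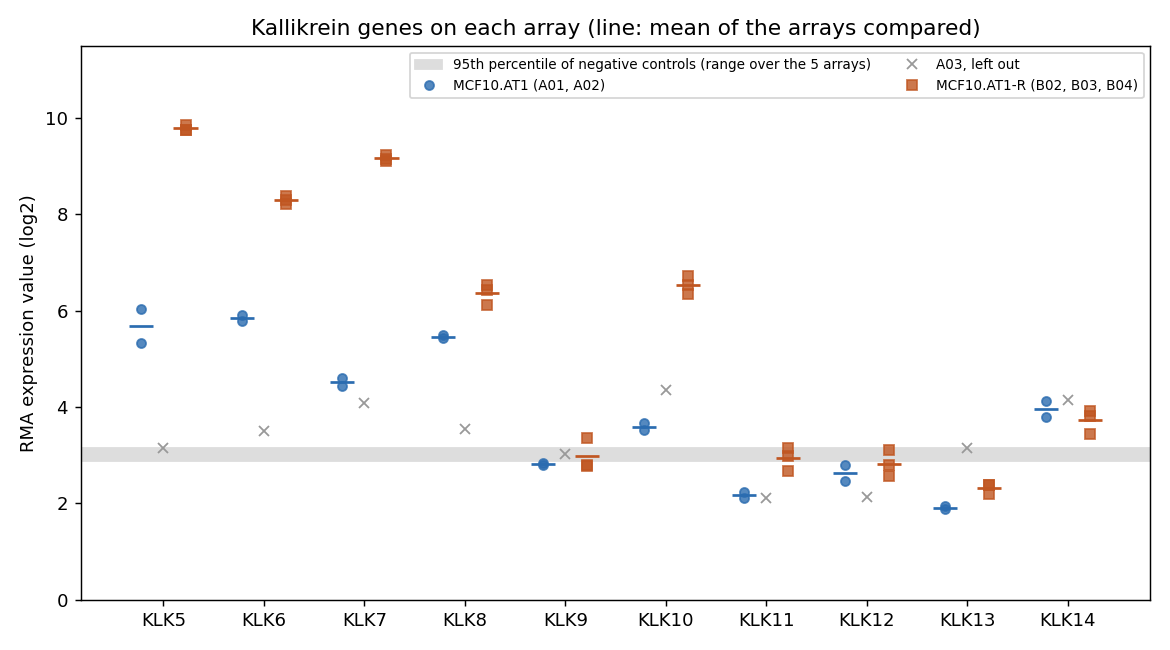
RMA log2 value (vertical axis) of each of the 10 kallikrein genes on each array, with MCF10.AT1 as circles, MCF10.AT1-R as squares, A03 as a cross and the group means as short lines; values of different genes come from different probes and are not compared. KLK5, KLK6, KLK7, KLK8 and KLK10 are separated between the lines above the grey band of the negative controls (2.88 to 3.14). On the arrays compared KLK9, KLK11, KLK12 and KLK13 lie in or below the band, apart from KLK9 on B02 and KLK11 on B04.

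**Figure D2:**
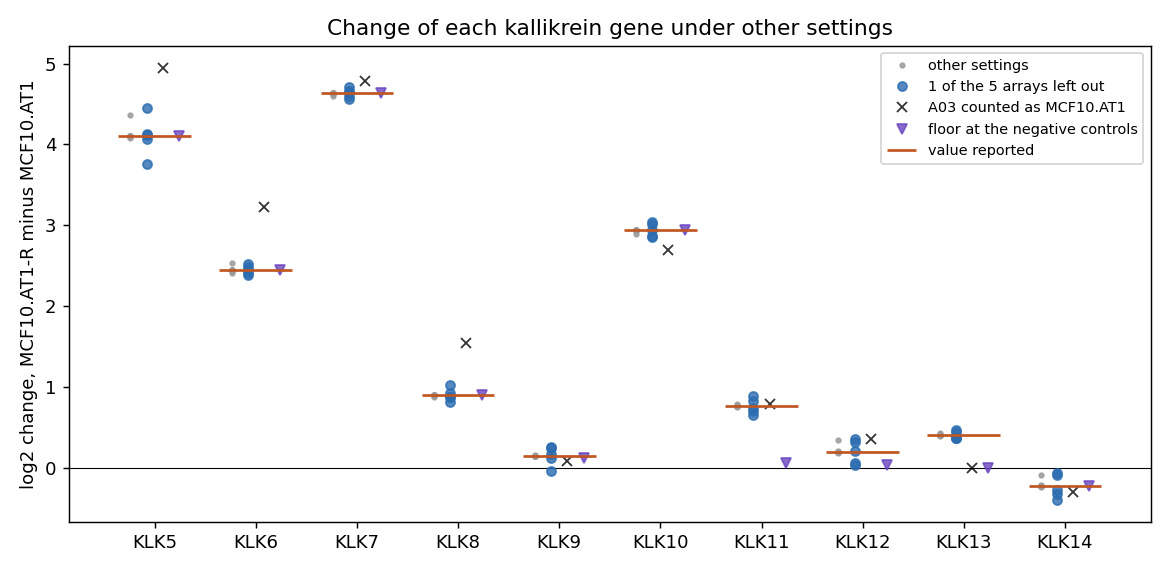
The log2 change of each kallikrein gene (vertical axis, MCF10.AT1-R minus MCF10.AT1) as reported and under each other setting, with 1 array left out as circles, A03 added as a cross and values raised to the negative controls as a triangle. KLK7 stays between 4.56 and 4.78 and KLK5 between 3.76 and 4.95, while KLK11 and KLK13 come to 0.06 and 0 once values are raised to the negative controls.

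Along the chromosome the genes run from KLK1, KLK15, KLK3, KLK2, KLKP1 and KLK4 to KLK5 and on in number order to KLK14. The plot of changes in gene order puts the 10 members beside these genes and their neighbours, which the choice of members did not use. The 7 other kallikrein genes (KLKP1 is a pseudogene, and KLKB1, plasma kallikrein, lies on another chromosome) gave 0 calls in limma at FDR 5%, and 0 of the 3 that passed the filter had an unadjusted p under 0.05. Over all tested probe sets 1.20% were called, so that nothing is read from 0 calls among so few genes. Their median log2 change was 0.04, the value of KLKP1, against -0.01 over the tested probe sets, though 4 of the 7 were removed by the filter. KLKP1 and KLKB1 lay within the negative controls on all 5 arrays and KLK1 on 2 of them. KLK4, the neighbour of KLK5 and a protease of forming tooth enamel, was 4.10 on A01, 3.73 on A02, 3.81 on B02, 4.22 on B03 and 4.14 on B04, a log2 change of 0.14 (standard error 0.31, adjusted p = 0.917 from limma). KLK3, the prostate-specific antigen, was 4.35 and 4.14 on the MCF10.AT1 arrays and 4.69, 4.44 and 4.62 on the MCF10.AT1-R arrays. The lines did not overlap for KLK3, but the change of 0.34 was not past the threshold (adjusted p = 0.835 from limma). KLK2 and KLK3 are close in sequence, so their probes may not separate them. KLK15 and KLK2 changed by 0.00 and 0.06 and were removed by the filter.

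On the far sides of the cluster 10 flanking genes gave 0 calls in limma at FDR 5%, with 1 of the 6 tested at an unadjusted p under 0.05. Here too the share of all tested probe sets called was 1.20%, and the count of 0 is not read as a result. C19orf48, before KLK1, changed by -0.01, and CTU1, a tRNA-modifying enzyme gene next to KLK14, changed by -0.09. SIGLEC9 and CD33, sialic acid-binding receptors of blood cells, changed by 0.26 and -0.03. The median of the 10 was -0.06 and the range was -0.74 to 0.30.

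**Figure D3:**
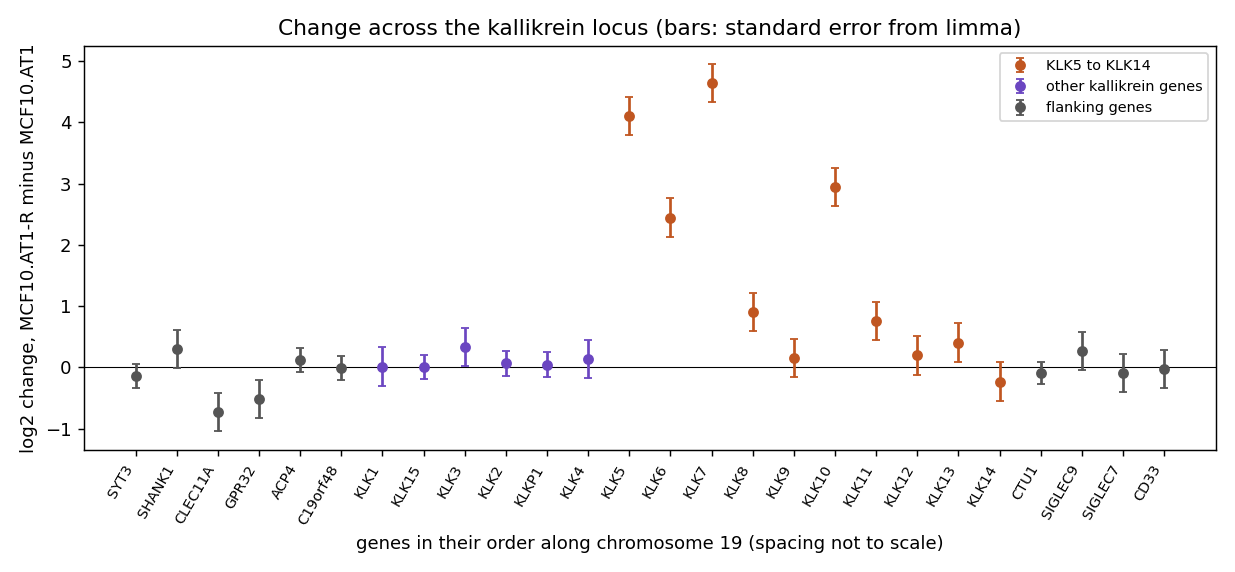
The log2 change between the lines (vertical axis, bars are the standard error from limma over 2 and 3 arrays) for kallikrein genes and their flanking genes, in their order along chromosome 19 from left to right. Genes removed by the filter have bars of 0.18 (CTU1) to 0.21 (KLK2) from limma without it. These are not comparable with the bars of 0.31 of the tested genes. KLK5, KLK6, KLK7 and KLK10 stand between 2.45 and 4.64, KLK8 and KLK11 at 0.90 and 0.76, and the genes on either side from SYT3 to KLK4 and from CTU1 to CD33 lie between -0.74 and 0.34.

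Protein inhibitors that act on kallikreins or on related serine proteases were looked up as a list of 18 genes. Of these 12 passed the filter and 4 rose at FDR 5%, with none past it in the other direction, where 1.20% of all tested probe sets were called. The median log2 change of the 18 was 0.47. PI3, which encodes elafin, an inhibitor of neutrophil elastase that also blocks KLK7, was 4.13 and 3.84 on the MCF10.AT1 arrays and 6.10, 6.13 and 6.11 on the MCF10.AT1-R arrays. It rose by 2.13 on the log2 scale (standard error 0.31, adjusted p = 6.05e-09 from limma, 0.00568 from limma with no filter). SLPI, the secretory leukocyte protease inhibitor, was 4.52 and 4.63 on the MCF10.AT1 arrays and 6.77, 6.34 and 6.56 on the MCF10.AT1-R arrays. It rose by 1.98 (adjusted p = 1.12e-07 from limma, 0.0120 from limma with no filter). For PI3 and for SLPI the lines were clearly apart on every array compared.

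A2ML1, a broad protease inhibitor of the epidermis, was 2.86 and 2.66 on the MCF10.AT1 arrays, both within the negative controls. It was 4.21, 4.38 and 4.98 on the MCF10.AT1-R arrays, a fitted log2 change of 1.76 (adjusted p = 6.18e-06 from limma). The limits of A01 and A02 themselves were 3.14 and 3.03. With values raised to 2.99, the mean limit of the 5 arrays, the change was 1.53. A2ML1 did not pass with that limit as a floor, with no filter or with the low-expression filter alone, though it passed where that filter was joined to the trend option. SPINT1, the membrane inhibitor HAI-1 of matriptase, rose by 1.21 (adjusted p = 0.0127 from limma), from 7.04 and 7.08 to 8.22, 8.15 and 8.45. SPINT1 did not pass without A01, without A02 or without B04, nor with no filter or the low-expression filter alone. SPINT2, SERPINA3, SERPINF2 and SERPINA1 changed by 0.85, 0.49, -0.19 and 0.28 without passing. SPINK5, the LEKTI gene named here after its values were seen, lay within the negative controls on all 5 arrays at 1.70, 1.64, 2.60, 1.61 and 2.40.

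Among 12 proteases that can activate kallikreins or act beside them, 7 passed the filter and 1 rose at FDR 5%. In all, 0.758% of the tested probe sets rose at that threshold. PRSS8, the prostasin gene, whose product works with matriptase in epithelia, was 3.74 and 4.41 on the MCF10.AT1 arrays and 5.72, 5.05 and 5.55 on the MCF10.AT1-R arrays. It rose by 1.36 on the log2 scale (adjusted p = 0.00221 from limma), and it was not past the threshold without A01, with no filter, with the low-expression filter alone or with the floor at the negative controls. ST14, the matriptase gene, was 7.61 and 7.82 on the MCF10.AT1 arrays and 8.72, 8.53 and 8.65 on the others. Its arrays did not overlap, and its change of 0.92 had an adjusted p of 0.157 from limma. PLAU, the urokinase gene, changed by 0.90 and PLAT, the tissue plasminogen activator gene, by -0.71, neither past the threshold though the arrays of both were apart. HPN, or hepsin, changed by 0.04 with overlapping arrays. The median over the 12 was 0.12.

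Of 17 genes for substrates and receptors that kallikreins can cut, 13 passed the filter and 2 rose. Over all tested probe sets 0.758% rose at FDR 5%. CDH1, the E-cadherin gene, was 6.97 and 6.79 on the MCF10.AT1 arrays and 8.25, 8.18 and 8.10 on the MCF10.AT1-R arrays, a rise of 1.30 (adjusted p = 0.00481 from limma). CDSN, the gene of corneodesmosin, an adhesion protein of cornified cells, was 4.53 and 4.67 on the MCF10.AT1 arrays and 5.67, 5.42 and 6.10 on the MCF10.AT1-R arrays, a rise of 1.14 (adjusted p = 0.0269 from limma). Both were apart on all arrays, but CDH1 did not pass without A01, without A02 or with no filter. CDSN did not pass without A01, A02, B02 or B04, nor with no filter, the low-expression filter alone or the floor. DSG1 and DSC1, whose cadherins are other classical targets of KLK5 in skin, lay within the negative controls on all 5 arrays. IGFBP3 changed by -0.98, APP by 0.64, PLAUR by 0.62 and FN1 by 0.43, with none of these past the threshold. F2RL1, the receptor PAR2 that trypsin-like kallikreins can switch on, changed by 0.20 with overlapping arrays. It is named after its values were seen.

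Of 15 transcription factors and nuclear receptors tied to kallikrein genes or to squamous differentiation, 12 passed the filter and 1 rose. The share of all tested probe sets that rose at FDR 5% was 0.758%. TP63, the p63 gene of basal and squamous epithelium, was 4.55 and 4.08 on the MCF10.AT1 arrays and 5.97, 6.20 and 6.03 on the MCF10.AT1-R arrays. It rose by 1.74 on the log2 scale (adjusted p = 8.14e-06 from limma, 0.0284 from limma with no filter). VDR, the vitamin D receptor gene, changed by 0.42, GRHL2 by 0.84 and RXRA by 0.28, all with arrays that did not overlap and none past the threshold. NR3C1, the glucocorticoid receptor gene, changed by -0.09. PGR, the progesterone receptor gene, also named after its values were seen, lay within the negative controls on all 5 arrays.

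**Figure D4:**
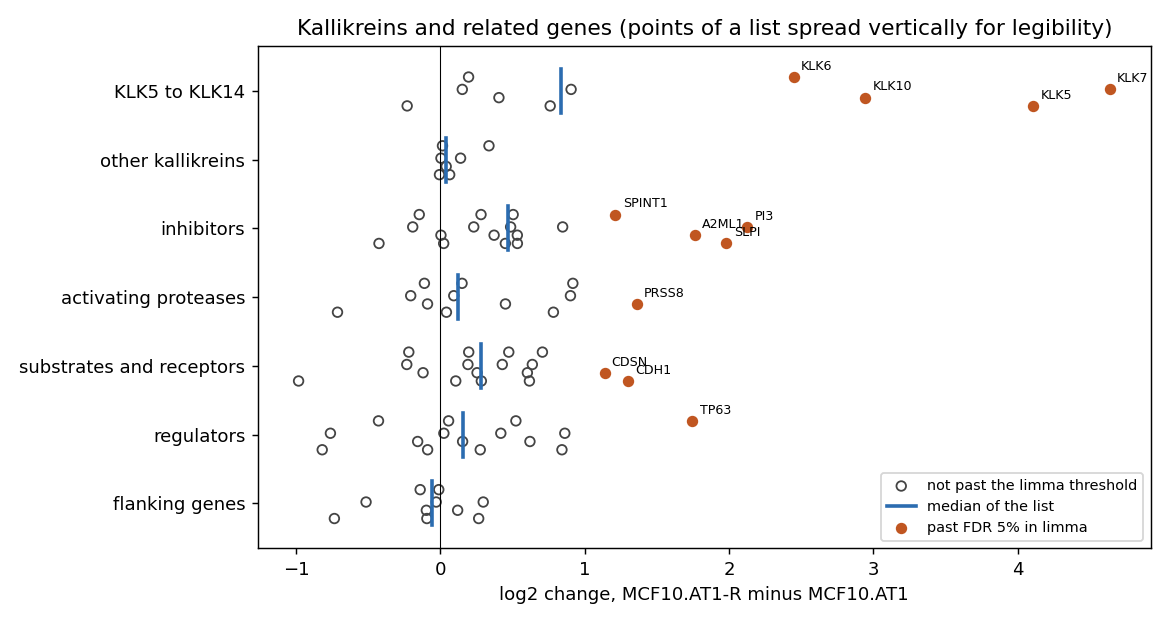
Each point is the log2 change of 1 gene between the lines (horizontal axis), grouped into the kallikrein members and 6 lists of related genes, filled where limma was past FDR 5% and open where it was not; blue bars are list medians. The filled points outside the members are PI3, SLPI, A2ML1, SPINT1, PRSS8, CDH1, CDSN and TP63, between 1.14 and 2.13, and the members KLK5, KLK6, KLK7 and KLK10 lie further right at 2.45 to 4.64.

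Markers of other cell types were read beside the members. Among all tested probe sets 0.758% rose and 0.447% fell at FDR 5%. Of 8 genes of cornifying keratinocytes 3 rose at FDR 5% in limma, KRT1, IVL and CDSN, and KRT1 did not pass with any of the 5 arrays left out. The summed log2 value of the 8 was 22.5 to 22.9 on the MCF10.AT1 arrays and 27.9 to 30.0 on the MCF10.AT1-R arrays, without overlap. Among single transcript probe sets 12.2% had all MCF10.AT1-R arrays above both MCF10.AT1 arrays, and 11.1% had them all below. IVL, the involucrin gene, rose by 3.23 (adjusted p = 9.18e-22 from limma, 0.00421 from limma with no filter). FLG, DSG1 and DSC1 lay within the negative controls on all 5 arrays. LOR lay within them on 4 of the 5 arrays and KRT10 on 1. Of the 10 basal markers 6 rose, and their sum was 67.8 to 68.6 in MCF10.AT1 and 83.5 to 84.1 in MCF10.AT1-R. Of 7 luminal markers 2 rose, KRT19 and KRT8 (KRT8 passed without B03 and with no other array left out), and the sums were 36.8 to 37.1 and 40.7 to 42.1. In the fibroblast list of 6, DCN fell by 2.15 and the sums were 27.0 to 27.7 and 24.8 to 25.6, a fall that lay in DCN, since the other 5 changed by -0.16 (COL3A1) to 0.15 (COL1A1). In the endothelial list of 3, PECAM1 fell by 1.12 (it passed without B04 and with no other array left out) and the sums were 11.8 to 12.0 and 10.2 to 10.9. None of the 4 leukocyte genes was past the threshold, with PTPRC within the negative controls on all 5 arrays and sums of 9.46 to 11.2 and 11.1 to 12.2. Whether these markers have a part in the kallikrein values was not tested. In bulk RNA more cells of a type and more RNA per cell cannot be told apart.

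The genes whose arrays followed KLK5 and KLK7 most closely were found by the root mean square difference of log2 values, each centred on its own mean over the 5 arrays. Nearest to KLK5 were KRT17 (0.24), KRT16P1 (0.25) and ADAMTS1 (0.26), and nearest to KLK7 were ADAMTS1 (0.14), KRT17 (0.28) and SERPINB2 (0.31). KRT17, a keratin of basal and stressed epithelium, was 6.56 and 6.56 on the MCF10.AT1 arrays and 10.6, 10.6 and 10.7 on the MCF10.AT1-R arrays. KRT16P1 is a pseudogene that can share probe sequence with KRT16. ADAMTS1 encodes a secreted metalloprotease, and it lay within the negative controls on both MCF10.AT1 arrays, so that its distances rest on values not above background (its step of 4.38 was 3.19 with values raised to the controls' limit). SERPINB2, a serine protease inhibitor gene, lay within them on A02. With 5 arrays in 2 lines such likeness rests on the step between the lines.

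**Figure D5:**
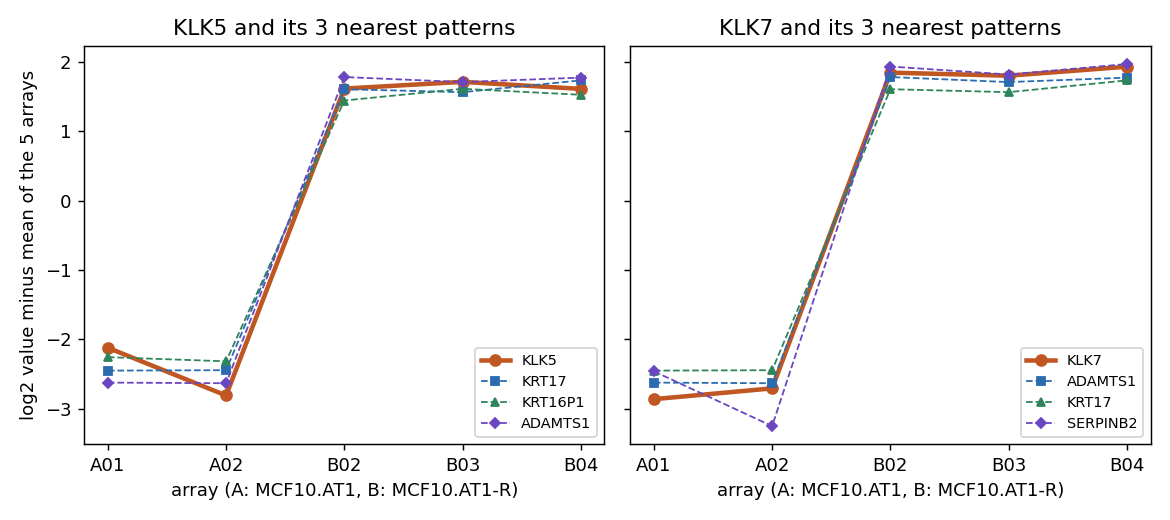
Log2 values centred on the mean of the 5 arrays (vertical axis) for KLK5 and KLK7 (thick lines) and the 3 genes nearest to each (dashed lines), over the MCF10.AT1 arrays A01 and A02 and the MCF10.AT1-R arrays B02, B03 and B04. The steps between the lines run from 3.81 (KRT16P1) to 4.76 (SERPINB2), with both MCF10.AT1 values of ADAMTS1 within the negative controls, and the distances to the nearest genes run from 0.14 to 0.31 on the log2 scale.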

How the data were processed

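Total RNA was profiled on Clariom D arrays, 3 per line. The deposited values are log2 expression, which the authors obtained from the scanned arrays by RMA in the packages affy and oligo. Versions and the genome build are not given in the sources used here. The table holds 138745 probe sets, of which 2995 are controls, and was not filtered. The letters A and B in the array names were matched to the lines through the study's account of the removed sample A3.

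Probe sets with a mean over 5 arrays above the median (1.88) and an SD above the lowest 25% (0.18) were fitted with limma 3.58.1 in R 4.3.3 (lmFit, eBayes, Benjamini-Hochberg). The study names no limits, so these were chosen here. Genes removed by the filter have values from limma without it. Where a symbol has several probe sets, the one with the highest mean was used. The fit was tested on simulated data. The members, lists and motifs were chosen with earlier results of these data known. Named were all members, the called genes of each list and its 4 highest others, and the 3 nearest patterns of KLK5 and KLK7. SPINK5, F2RL1, PGR, KLF4, ZNF750, DSG1, DSC1, FLG, PTPRC and other markers were named after their values were seen. Alternatives changed 1 choice at a time, except array weights, which also brought A03 in, and the trend option joined to the low-expression filter, an alternative added later. Precision is limited by the number of arrays.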

Additional observations from a re-analysis of the deposited data

How the results depend on the processing

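No paired analysis was possible because the array columns carry no replicate numbers that match the labels. Of the 17 alternatives, 1 was chosen after the data were examined, the trend option joined to the low-expression filter without the filter on invariant probe sets. The count of 4 kallikrein members past FDR 5% was 1 with A03 counted as MCF10.AT1, 4 with any of the 5 arrays left out, and 4 to 6 under the others. With A03 counted as MCF10.AT1 the counts for inhibitors, activating proteases, substrates and receptors, and regulators were 0, 0, 0 and 0, and 26 probe sets passed in all. Inhibitors passed in 2 cases with no filter and in 2 with the low-expression filter alone, and activating proteases in 0 and 0, where the substrates and receptors gave 0 and 1. Array weights over 6 arrays gave 2 activating proteases, 3 regulators and 1 flanking gene (CLEC11A, lower in MCF10.AT1-R). Of the 3 regulators, TP63 and GRHL3 were higher in MCF10.AT1-R and KLF4 was lower. The trend option gave 3 activating proteases, 5 substrates and receptors and 3 regulators, and the combination chosen later also gave 3, 5 and 3. The stricter low-expression filter gave 3 activating proteases. With a floor at the negative controls there were 0 activating proteases and 1 gene among substrates and receptors. With each array left out in turn the activating proteases ranged from 0 (without A01) to 1, the substrates and receptors from 0 (without A01 or A02) to 2, the inhibitors from 3 to 4, the regulators stayed at 1 and the other kallikreins and the flanking genes at 0. Against 620 probe sets called in all, there were 314 without A01, 271 without A02, 1744 with array weights, 177 with no filter, 1377 with the trend option, 182 with the low-expression filter alone, 1086 with the later combination and 272 with the floor. Adding A03 moved the median change to -0.14. Without A01 or A02 the lone MCF10.AT1 array was assumed to vary like the other line. The cause was not tested. KLK9 changed sign without B02 (-0.04), as did KLK13 with A03 added (-0.01), and no other member did. With 2 arrays against 3, changes near or below the limit of the negative controls, such as those of KLK9, KLK11, KLK12 and KLK13, could not be resolved.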
